A study of Mus musculus with 8 samples.

Results

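The proteasome genes of the mouse liver were compared between 4 mice treated with anti-miR-128-3p, which is directed against the microRNA miR-128-3p, and 4 mice that served as controls. The members are the protein-coding genes whose symbol starts with Psma to Psmg and a number and that have an array probe set naming that gene alone, which gave 48 genes of 30627 measured. They comprise 30 constitutive subunits, 4 genes of the immunoproteasome and its activator, and 14 others, of which 2, Psmc3ip and Psme3ip1, share only the name pattern and encode no proteasome subunit. Psmb5, Psme2 and Psme2b are not analysed here, because their probe sets name several genes.

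All 8 mice were male C57BL/6 on a 13-week high fat diet, a model of raised blood cholesterol, and were assigned to their group at random. The treated group was injected with anti-miR-128-3p and the other with a control, 5 times each and intraperitoneally. One treatment note instead names miR-128-3p and a vehicle, and the groups here follow the sample titles. The samples are liver tissue, so fewer cells of a type and less RNA per cell cannot be told apart in any value below. The labels number the mice but do not state that each array is a separate animal. The p-values therefore weigh group differences against the spread between these samples, which may not be the spread between animals. Values are log2 RMA signals (RMA is a background correction, normalization and probe summary for Affymetrix arrays), and differences are treated minus control on that scale with the standard error of limma, a linear model fitted across all genes.

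The proteasome is the barrel-shaped protease that degrades proteins tagged with ubiquitin. Its 20S core is built of alpha subunits, which gate the barrel, and beta subunits, of which Psmb5, Psmb6 and Psmb7 carry the constitutive active sites, and the 19S particle caps the core, unfolds substrates and removes ubiquitin. Interferons induce Psmb8, Psmb9 and Psmb10, which take the places of those 3 subunits in newly built cores to form the immunoproteasome, and the PA28 activator of Psme1 and Psme2. Immunoproteasomes favour cleavage into peptides that fit major histocompatibility complex (MHC) class I, and they are abundant in blood-derived cells and inducible in hepatocytes.

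The targeted microRNA has 2 genes in the RefSeq table (GRCm38.p6), Mir128-1 at chr1:128202404-128202424 on the plus strand and Mir128-2 at chr9:112118644-112118664 on the minus strand. Both give the same mature RNA, shown because it is the target of the treatment, with its seed (bases 2 to 8) in capitals:

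mmu-miR-128-3p: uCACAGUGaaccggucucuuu

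Treated livers had somewhat higher signals of the immunoproteasome genes Psmb8 and Psmb9, whereas Psmb10, Psme1 and nearly all constitutive subunits differed by less or not beyond the spread between livers. The 4 immunoproteasome and PA28 genes had a median log2 difference of 0.20, against 0.05 for the 30 constitutive subunits and -0.002 for all 30627 genes. No proteasome gene passed Benjamini-Hochberg adjustment over all genes, as no gene of the table did (0.0%, with a smallest limma adjusted p of 0.194), and the smallest adjusted p among the 48 was 0.415, for Psmb1. At an unadjusted limma p under 0.05, 4 of the 48 genes were higher in treated livers (8.33%) against 4.26% of all genes, and 0 were lower against 3.37%. The 4 were Psmb1, Psmb8, Psmb9 and Psmd10, of which Psmb8 lost that threshold in most alternative settings.

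Psmb8 encodes the immunoproteasome subunit that replaces Psmb5, the chymotrypsin-like site. Its signal was 6.66, 6.68, 6.19 and 6.81 in control livers 1 to 4 and 6.75, 6.87, 7.0 and 6.88 in treated livers 1 to 4. Control liver 3 was the lowest of all 8, the other 3 controls came close to the treated livers, and the groups overlapped. The difference was 0.29 ± 0.12 (log2 ± SE, n = 4 each), or 1.22-fold, with a 95% interval of 0.01 to 0.57 and a limma adjusted p of 0.643. Without control liver 3 it was 0.16 ± 0.07, with an unadjusted limma p of 0.0629, and an unadjusted p under 0.05 was met in 6 of 16 alternative settings, centring on array medians not among them.

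Psmb9 encodes the subunit that replaces Psmb6, the caspase-like site. It was at 5.73, 5.79, 5.54 and 5.97 in the control livers and at 6.03, 6.04, 5.98 and 5.97 in the treated livers. The treated livers lay within 0.07 of each other while the controls spread over 0.43, and the lowest treated liver exceeded the highest control by only 2e-05. Psmb9 was thus 1 of 2 proteasome genes (4.17%) whose groups did not overlap with treated livers higher, against 2.52% of all genes, while 0 did so with treated livers lower, against 1.89%. The difference was 0.25 ± 0.08, or 1.19-fold (limma adjusted p = 0.509), and 0.18 ± 0.07 without control liver 3.

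Psmb10, which replaces Psmb7, the trypsin-like site, did not share this pattern. Its signal was 7.49, 7.74, 7.46 and 7.76 in controls and 7.62, 7.90, 7.69 and 7.55 in treated livers. Both groups covered much the same range, and the difference was 0.08 ± 0.10 with a 95% interval of -0.14 to 0.30 (limma adjusted p = 0.911). Psme1, the alpha subunit of the PA28 ring that opens the core, was at 8.14, 8.22, 7.94 and 8.44 in controls and 8.38, 8.38, 8.39 and 8.20 in treated livers. Of its 4 treated livers 3 were nearly equal and replicate 4 was lower, and control liver 4 was the highest of all 8. The difference of 0.15 ± 0.10 (limma adjusted p = 0.798) became 0.07 ± 0.09 without control liver 3.

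**Figure D1:**
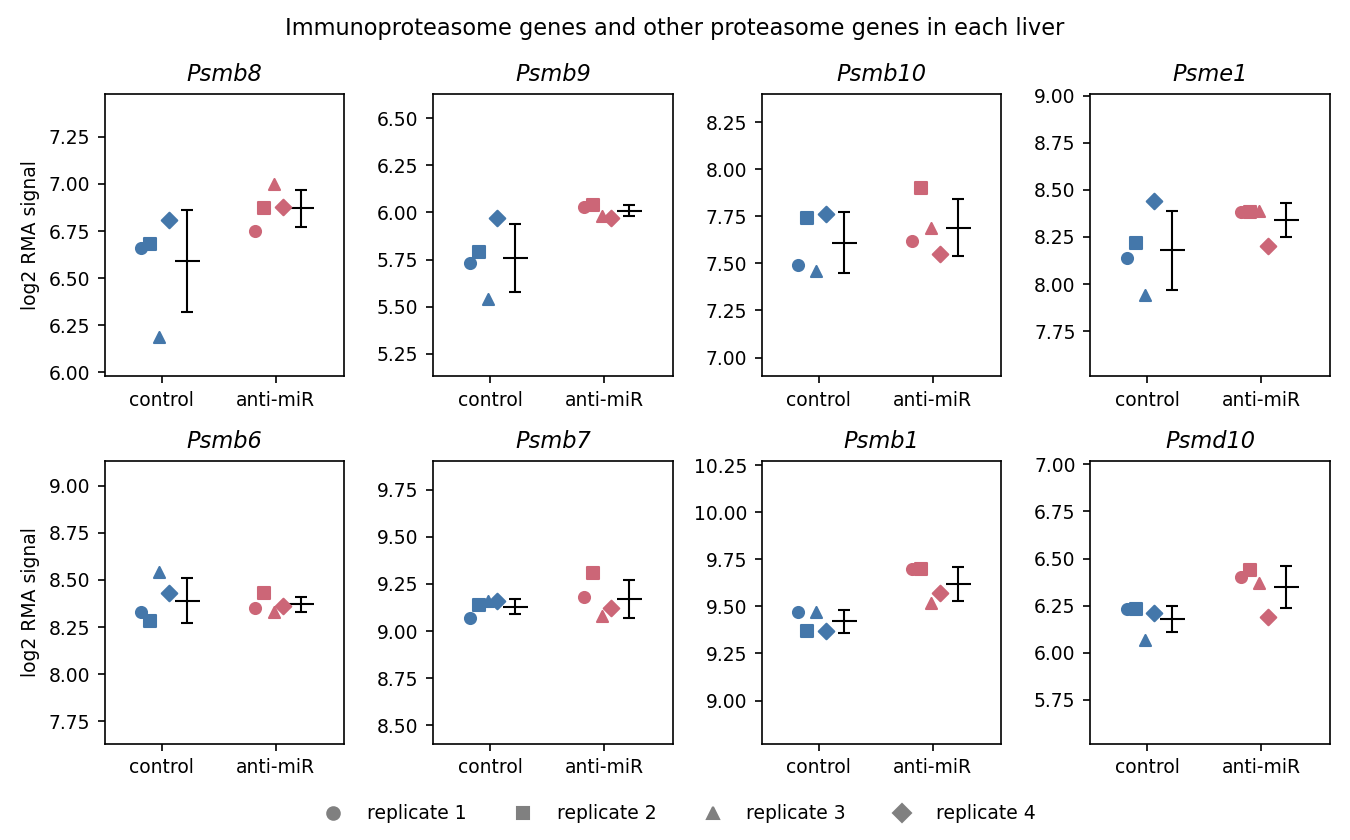
Log2 RMA signal (vertical axis, a span of 1.5 in every panel) of 8 proteasome genes in the 4 control livers (blue) and the 4 anti-miR-128-3p livers (red), with marker shapes for replicate numbers and black bars for mean ± SD. Control liver 3 (blue triangle) is the lowest control in Psmb8, Psmb9, Psmb10 and Psme1, and the treated livers of Psmb9 lie between 5.97 and 6.04.

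Whether an immunoproteasome subunit changed more than the constitutive subunit it replaces was tested on the difference of both log2 signals within each liver, set to 0 at the control mean. For Psmb9 with Psmb6 this value was 0.03, 0.15, -0.36 and 0.18 in control livers and 0.31, 0.25, 0.29 and 0.25 in treated livers. All treated livers lay above all controls, by 0.28 on average. The exact two-sided permutation p was 0.0286, the smallest that 4 against 4 can give, and 0.0571 after Benjamini-Hochberg adjustment over the 2 pairs measured. A pair at that smallest p can pass the threshold of 0.05 only if the other pair is also under 0.05. Psmb9 with Psmb6 could therefore not pass alone, and the adjusted p does not decide whether this pair changed. Without control liver 3 the mean change was 0.15. For Psmb10 with Psmb7 the value ran from -0.18 to 0.12 in controls and from -0.05 to 0.13 in treated livers, a mean change of 0.04 (exact two-sided permutation p = 0.543). The pair of Psmb8 is not analysed here, since Psmb5 had no probe set of its own.

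Both constitutive counterparts stayed within the spread between livers. Psmb6 was at 8.33, 8.28, 8.54 and 8.43 in controls and 8.35, 8.43, 8.33 and 8.36 in treated livers, and its highest liver was control liver 3, where Psmb9 was lowest. Its difference was -0.03 ± 0.06, with a 95% interval of -0.17 to 0.12, and was 0.02 without control liver 3. Psmb7 was at 9.07, 9.14, 9.16 and 9.16 in controls and 9.18, 9.31, 9.08 and 9.12 in treated livers, a difference of 0.04 ± 0.06 that was -0.01 without treated liver 2.

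Among the beta subunits without an active site of their own, Psmb1 stood apart. It was at 9.47, 9.37, 9.47 and 9.37 in controls and 9.70, 9.70, 9.52 and 9.57 in treated livers, with no overlap. It was 0.20 ± 0.06 higher, or 1.15-fold (limma adjusted p = 0.415), and remained between 0.17 and 0.24 when any single liver was left out. The other 3, Psmb2, Psmb3 and Psmb4, differed by -0.03 to 0.05.

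The alpha ring subunits all had positive differences, 7 of 7, with a median of 0.09 and a range from 0.02 for Psma6 to 0.14 for Psma5. Psma5 was at 7.90, 7.90, 7.98 and 7.87 in controls and 8.16, 8.09, 7.88 and 8.06 in treated livers, so that all treated livers but replicate 3 exceeded every control. Psma2 was at 8.0, 7.94, 7.99 and 8.09 against 8.13, 8.23, 8.14 and 8.03, a difference of 0.12 ± 0.06. None of the 7 reached an unadjusted p of 0.05.

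The 19S particle was similar in both groups. Its 6 ATPases, which unfold and thread substrates, all had positive differences, from 0.03 for Psmc2 to 0.15 ± 0.09 for Psmc5. The base subunits Psmd1, Psmd2 and Psmd4, the last a ubiquitin receptor, differed by -0.04 to 0.05. The 8 lid subunits, which include the deubiquitinase Psmd14, ran from -0.11 ± 0.08 for Psmd11 to 0.14 ± 0.10 for Psmd3, with 6 higher and 2 lower, and Psmd14 itself differed by 0.04 ± 0.07. Psmd11 was at 8.78, 9.10, 9.10 and 9.10 in controls and 8.86 to 8.97 in treated livers, so that control liver 1 was below and the other 3 controls above the treated range.

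Taking the constitutive subunits as one set, 25 of 30 (83.3%) had a positive difference, against 49.1% of all genes and 46.0% of the 6776 genes whose mean signal lay in the same range of 6.73 to 9.52. Their sizes were small: the median absolute difference was 0.055, against 0.079 for those 6776 genes, and none exceeded 0.20. Only Psmb1 had a 95% interval without 0. Across all 30, no interval reached below -0.28 (Psmd11) or above 0.35 (Psmc5 and Psmd3). All were measured in the same 8 livers, so these counts are not independent observations. Their mean gene-centred signal, in which each gene is first set to an average of 0 across the livers, was -0.05, -0.06, 0.03 and -0.02 in controls and 0.03, 0.09, -0.02 and 0.01 in treated livers, which overlap.

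**Figure D2:**
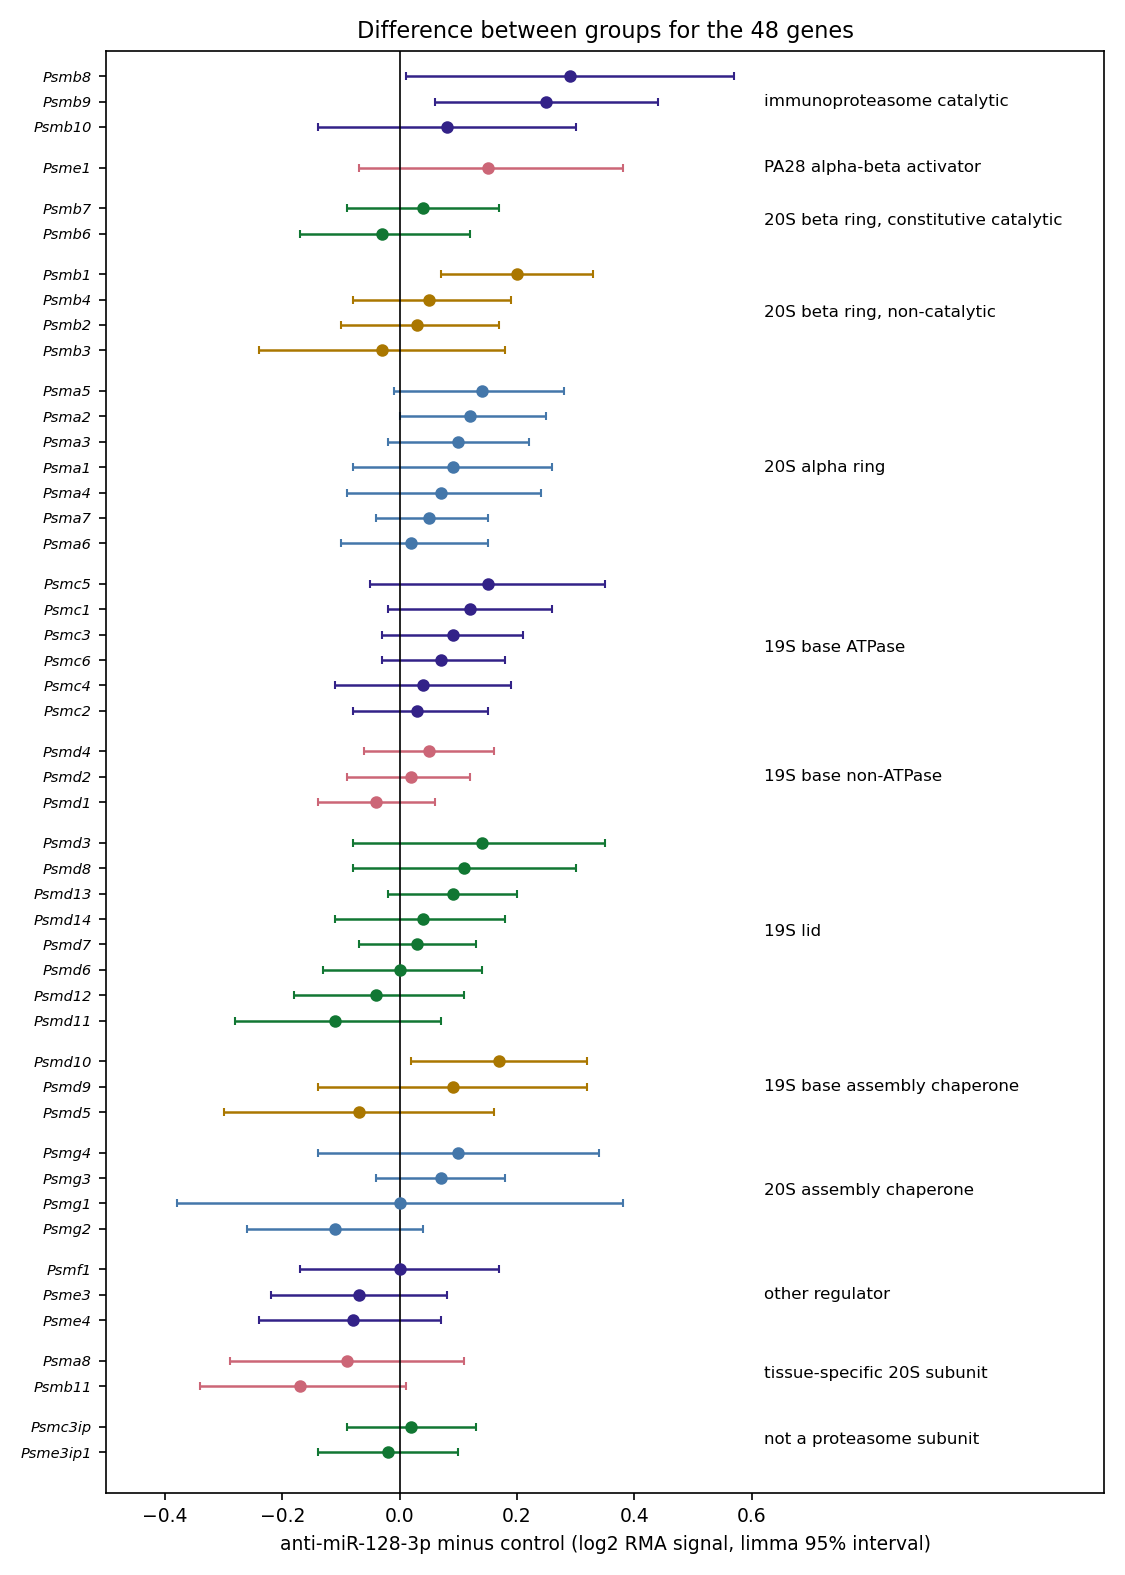
Difference between groups (horizontal axis, anti-miR-128-3p minus control in log2 RMA signal) for each of the 48 genes, ordered by role, with limma 95% intervals unadjusted for the number of genes. Intervals of Psmb1, Psmb8, Psmb9 and Psmd10 leave out 0, and those of the other genes include it.

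Assembly factors and regulators showed no common direction. Psmd10 (gankyrin), a chaperone of the 19S base, was at 6.23, 6.23, 6.07 and 6.21 in controls and 6.40, 6.44, 6.37 and 6.19 in treated livers, higher in 3 of the 4 treated livers than in any control, by 0.17 ± 0.07 on average (limma adjusted p = 0.588). The related base chaperones Psmd5 and Psmd9 differed by -0.07 ± 0.10 and 0.09 ± 0.10. Of the 20S assembly chaperones, Psmg1 to Psmg4, 2 were higher and 2 lower, from -0.11 for Psmg2 to 0.10 for Psmg4. Psmg1 varied most between livers of one group, from 7.48 to 8.19 in controls, with control liver 3 the highest. The nuclear activator genes Psme3 and Psme4 and the regulator gene Psmf1 differed by -0.07 ± 0.07, -0.08 ± 0.07 and 0.00 ± 0.08.

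The tissue-restricted core subunits were dim. Psmb11, the thymus subunit, lay between 3.58 and 4.05 in all livers, below the array medians of the negative control rows, 4.32 to 4.48. Psma8, the testis subunit, lay between 4.59 and 4.98. Psma8 was above those medians in every liver. Their differences were -0.17 ± 0.08 and -0.09 ± 0.09. The 2 genes outside the complex, Psmc3ip, a meiotic recombination factor, and Psme3ip1, a partner of Psme3, differed by 0.02 and -0.02.

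Other genes of proteasome assembly and supply were taken from a list of 20, of which 16 were measured: 6 were higher and 10 lower, with a median of -0.02. At an unadjusted p under 0.05 there were 2 higher, against 4.26% of all genes, and 2 lower, against 3.37%. Pomp, the chaperone that completes the core and is needed for immunoproteasome assembly, was at 9.22, 9.04, 9.21 and 9.16 in controls and 9.38, 9.55, 9.24 and 9.41 in treated livers. These did not overlap, and the difference was 0.24 ± 0.07 (limma adjusted p = 0.458). Sem1, a small lid subunit outside the name pattern, was at 6.76 to 6.97 in controls and 6.99 to 7.14 in treated livers, 0.21 ± 0.06 higher (limma adjusted p = 0.430). Nfe2l1 (NRF1), the transcription factor that restores constitutive proteasome genes when proteasome activity falls, was at 8.95, 9.09, 9.19 and 8.77 in controls and 8.70 to 8.81 in treated livers, with a difference of -0.24 ± 0.09 (limma adjusted p = 0.549). Akirin2, which carries proteasomes into the nucleus, differed by -0.19 ± 0.07.

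Psmb8 and Psmb9 lie in the MHC class II region of chromosome 17, beside Tap1 and Tap2, which form the transporter that carries peptides to MHC class I. In the RefSeq order of protein-coding genes, Psmb9, Tap1, Psmb8 and Tap2 are consecutive. All 4 were higher in treated livers: Tap1 by 0.37 ± 0.09 (limma adjusted p = 0.331) and Tap2 by 0.24 ± 0.07 (limma adjusted p = 0.386), both without overlap between groups. Tap1 was at 7.46, 7.76, 7.32 and 7.69 in controls and 7.95, 7.88, 7.94 and 7.93 in treated livers, so its treated livers were as close together, within 0.07, as those of Psmb9, and control liver 3 was again the lowest. The genes that flank these 4 were chosen after their values were seen and differed by less or were lower, which was not tested: the nearest on one side, H2-DMb1, differed by -0.06 ± 0.17 and on the other, H2-Ob, by 0.02 ± 0.04, and the class II genes H2-Ab1 and H2-Aa by -0.33 ± 0.26 and -0.24 ± 0.21. In the peptide loading list of 9 genes, 8 were higher, with a median of 0.11. At an unadjusted p under 0.05 there were 2 higher, against 4.26% of all genes, and 0 lower, against 3.37%.

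The 300-base start-site windows of Psmb9 and Tap1 (mostly upstream of the start, RefSeq, GRCm38.p6) face in opposite directions and share 275 of 300 bases. The windows of Psmb8, Psmb9 and Psme1 are shown because, of the 4 immunoproteasome and PA28 genes, these had the largest differences. RefSeq windows were matched for 40 of the 48 genes. The motifs searched on both strands were the interferon-stimulated response element as GAAA, any 2 bases, GAAA; the gamma-activated site as TTCNNNGAA; the antioxidant response element, bound by NRF1, as TGACNNNGC; and the GC box as GGGCGG. Capitals mark the interferon motif in Psmb8 (a gamma-activated site) and Psme1 (a response element) and the GC box in Psmb9, whose window held neither interferon motif in these letters. The window of Psme1 also held a GC box, at bases 142 to 147, which is left in lower case.

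Psmb8, chr17:34197945-34198244, plus strand: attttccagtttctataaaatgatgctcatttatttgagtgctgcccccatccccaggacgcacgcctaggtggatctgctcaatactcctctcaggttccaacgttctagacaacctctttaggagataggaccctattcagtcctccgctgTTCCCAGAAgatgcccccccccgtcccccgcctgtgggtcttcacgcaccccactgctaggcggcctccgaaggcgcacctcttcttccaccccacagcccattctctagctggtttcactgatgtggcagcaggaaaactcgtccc

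Psmb9, chr17:34187281-34187580, minus strand: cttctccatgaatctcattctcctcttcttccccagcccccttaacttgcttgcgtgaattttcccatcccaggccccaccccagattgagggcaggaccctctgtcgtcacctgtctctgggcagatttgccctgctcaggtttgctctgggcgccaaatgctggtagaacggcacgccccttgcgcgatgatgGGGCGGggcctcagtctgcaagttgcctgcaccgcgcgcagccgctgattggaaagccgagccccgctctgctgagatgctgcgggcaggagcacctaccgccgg

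Psme1, chr14:55578244-55578543, plus strand: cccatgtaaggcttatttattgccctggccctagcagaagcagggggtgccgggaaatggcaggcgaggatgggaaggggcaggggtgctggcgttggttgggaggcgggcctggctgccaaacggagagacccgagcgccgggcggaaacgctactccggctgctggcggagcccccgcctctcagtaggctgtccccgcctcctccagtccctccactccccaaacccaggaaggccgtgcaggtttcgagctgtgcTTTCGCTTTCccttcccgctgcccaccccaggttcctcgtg

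The response element was found in 5 of the 40 proteasome windows (Psmb3, Psmd4, Psmd9, Psme1 and Psmg4) and in 3.44% of all 32851 windows. The gamma-activated site was found in 3 (Psmb8, Psmd2 and Psmg1) and in 8.30% of all. The antioxidant element was found in 3 of the 24 constitutive windows, those of Psmb6, Psmc6 and Psmd12, and in 12.4% of all. The GC box was found in 15 of the 24 and in 35.7% of all. These are letter matches in a 300-base window and say nothing about binding.

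Genes known to be induced by interferon differed by more. On a list of 22, chosen with earlier results of these data known, 21 were measured. All 21 were higher, with a median log2 difference of 0.77. At an unadjusted p under 0.05, 20 were higher, against 4.26% of all genes. Among them, Ifit1, whose product binds viral RNA, was 1.61 ± 0.24 higher and Dhx58, a helicase of RNA sensing, 0.67 ± 0.10. The median of Psmb8, Psmb9, Psmb10 and Psme1 was 0.20 in the same livers, and the difference between both lists was not tested. Of the receptors and transcription factors that lead from interferon to these genes, 12 of 14 listed were measured, of which 9 were higher and 3 lower (median 0.08). At an unadjusted p under 0.05 there were 3 higher, against 4.26% of all genes, and 1 lower, against 3.37%. The 1 was Ifnar1, a chain of the type I interferon receptor, at 8.44, 8.5, 8.26 and 8.40 in controls and 8.19, 8.23, 8.33 and 8.11 in treated livers, a difference of -0.19 ± 0.07 (limma adjusted p = 0.549). Its groups overlapped through control liver 3 and treated liver 3. Irf9 and Stat2, parts of the type I interferon transcription complex, were 0.44 ± 0.07 and 0.30 ± 0.06 higher without overlap between groups (limma adjusted p = 0.194 and 0.206). Irf1, the interferon gamma factor that induces immunoproteasome genes, was at 7.43, 7.33, 6.81 and 7.34 in controls and 7.95, 7.61, 7.30 and 7.58 in treated livers, 0.38 ± 0.16 higher (limma adjusted p = 0.629).

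Liver by liver, the control animals had the same order in both lists. The mean gene-centred signal of the 21 interferon-induced genes was -0.68, -0.28, -0.75 and -0.12 in control livers 1 to 4, and that of the 4 immunoproteasome and PA28 genes was -0.13, -0.03, -0.35 and 0.12, lowest in control liver 3 and highest in control liver 4 in both. The macrophage and Kupffer cell markers described below had this order too, at -0.21, 0.04, -0.84 and 0.07. So did the stellate cell markers, at -0.35, -0.14, -0.36 and -0.11. The order is thus not particular to the interferon-induced and immunoproteasome genes. In treated livers 1 to 4 the interferon-induced genes were at 0.37, 0.27, 0.84 and 0.35 and the immunoproteasome genes at 0.06, 0.17, 0.13 and 0.02. Treated liver 3, by far the highest for interferon-induced genes, was no higher than treated liver 2 for the immunoproteasome genes, and control liver 4 reached the treated range for these but not for the interferon-induced genes.

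**Figure D3:**
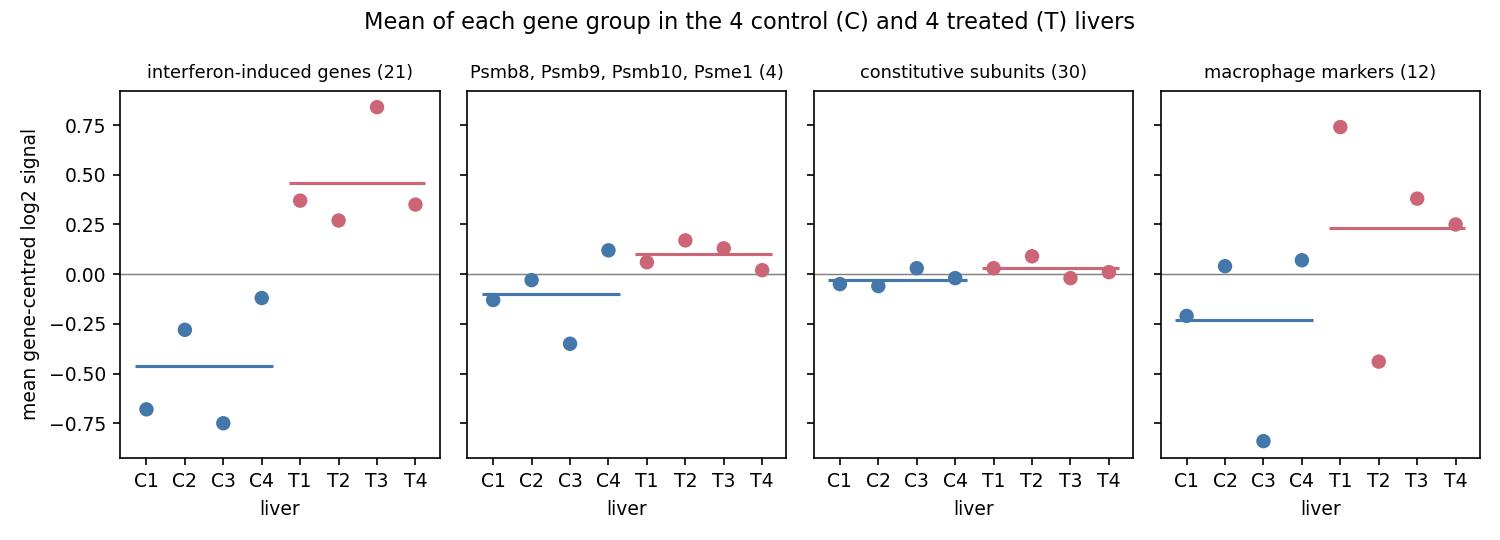
Mean gene-centred log2 signal (vertical axis) of 4 gene groups in control livers C1 to C4 (blue) and treated livers T1 to T4 (red), with horizontal lines for group means. Interferon-induced genes separate the groups, from -0.12 at most in controls to 0.27 at least in treated livers, whereas the immunoproteasome genes, the constitutive subunits and the macrophage markers overlap.

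Markers of other cells in the liver varied too. Of 12 markers of macrophages and Kupffer cells, 11 were higher (median 0.45), with a mean signal of 6.99 to 7.91 in controls and 7.39 to 8.57 in treated livers. Their centred mean was -0.84 in control liver 3, where Psmb8, Psmb9 and Psme1 were lowest, but -0.44 in treated liver 2, where the mean of the 4 immunoproteasome genes was the highest of all. Lymphocyte and NK cell markers had a mean signal of 4.66 to 5.05 in controls and 4.74 to 4.91 in treated livers (8 of 11 higher, median 0.04), close to the negative control medians. Dendritic cell markers were at 4.74 to 4.92 in controls and 4.61 to 4.79 in treated livers. Of these, 2 of 7 were higher and the median difference was -0.01. Neutrophil markers lay between 4.47 and 6.16 in controls and 4.52 and 4.90 in treated livers (2 of 8 higher), the highest in control liver 1. Sinusoidal endothelial markers had a mean signal of 7.44 to 7.87 in controls and 7.36 to 7.71 in treated livers, with 1 of 6 higher. At an unadjusted p under 0.05, 3 were lower, against 3.37% of all genes: Clec4g by -0.53 ± 0.19, Tek by -0.33 ± 0.12 and Stab1 by -0.20 ± 0.07. The mean signal of the stellate cell markers did not overlap, at 7.08 to 7.33 in controls and 7.35 to 8.25 in treated livers. Of these markers 4 of 6 were higher, with a median of only 0.11, and Dcn and Des differed by -0.10 ± 0.13 and 0.12 ± 0.16. The collagen genes Col1a1 and Col3a1 differed most among them, by 1.62 ± 0.41 and 1.22 ± 0.35 without overlap (limma adjusted p = 0.342 and 0.406), and both were highest in treated liver 3. Among the dendritic cell markers Cd207 (langerin) was lower without overlap, by -1.22 ± 0.22 (limma adjusted p = 0.202). The differences of Col1a1, Col3a1, Cd207, Clec4g and Tek, among other markers, were larger in size than that of any proteasome gene. So were those of the macrophage markers Cd5l (0.76 ± 0.35), Timd4 (0.69 ± 0.30), Cd163 (0.66 ± 0.35) and Clec4f (0.50 ± 0.23), whose groups overlapped. At an unadjusted p under 0.05, 1 of the 12 macrophage markers was higher (Timd4), against 4.26% of all genes. By the same threshold 0 were lower, against 3.37%. The hepatocyte markers, at a mean signal of 12.96 to 13.09 in all livers, bear out the tissue label. Of these, 2 of 8 were higher and 6 lower, with a median of -0.02. At an unadjusted p under 0.05, 0 were higher, against 4.26% of all genes, and 1 was lower, against 3.37%. The 1 was Hnf4a, by -0.24 ± 0.10 (limma adjusted p = 0.606), with overlap between groups. The part of these cells in the immunoproteasome values was not tested.

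The 6 named protein-coding genes whose signal over the 8 livers was most like the mean of Psmb8, Psmb9, Psmb10 and Psme1 were Mgst1, Rpl39, Olfr52, Zfp991, Gbp7 and Micu2 (Pearson r of 0.931 to 0.966 over 8 arrays, a description with no test). Olfr52 (2.83 to 3.08) and Zfp991 (2.57 to 3.01) were below the negative control medians, 4.32 to 4.48, in every liver. Their likeness can thus not be read as expression. Gbp7, an interferon-inducible GTPase, was at 7.75, 8.22, 7.28 and 8.41 in controls and 8.18, 8.44, 8.81 and 7.99 in treated livers, again lowest in control liver 3.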

How the data were processed

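Liver RNA was measured on 8 Affymetrix arrays (4 control, 4 treated). The deposited values are log2 signals made by the authors with RMA, per the submitters' processing notes; for the annotation build and software version, the sources used here give nothing. Depth has no counterpart on arrays, and their number limits precision.

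Symbols came from the platform annotation, updated against RefSeq (GRCm38.p6). Of 65956 transcript probe sets, 31080 named exactly 1 gene, which gave 30627 genes. For 357 genes with several, the brightest probe set by its mean across arrays was taken. Array medians ran from 5.04 to 5.12.

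Groups were compared with limma 3.58.1 in R 4.3.3 (lmFit, eBayes, no covariate, two-sided, Benjamini-Hochberg over 30627 genes). Swap pairs were tested by exact permutation over 70 assignments. The limma step was tested on simulated data with changes of 0.5, 1 and 2 in log2. At the adjusted threshold 55.2%, 89.6% and 100% of these were recovered, out of 67, 67 and 66 changed genes. The changed genes were drawn only from the brighter part of the genes, at or above the median signal. Their simulated noise was normal and independent between genes. In the real data even Ifit1, at 1.61 ± 0.24, did not pass (limma adjusted p = 0.194). The simulated shares can therefore overstate what this comparison recovers. Smaller changes were not simulated, and the largest difference of a proteasome gene was 0.29 (Psmb8). The lack of adjusted calls thus does not show that differences of that size are absent. The plan named 5 immunoproteasome genes and 3 swap pairs; Psme2 and the pair of Psmb8 had no value, which left 4 genes and 2 pairs.

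Named genes follow a rule: all members accounted for, with liver values for immunoproteasome genes, their counterparts and members with an unadjusted p under 0.05; up to 4 genes per other list by smallest p; and the 6 genes most alike in pattern. Members and lists were chosen with earlier results of these data known. Alternatives were centring, quantile normalization, probe set means, trend and robust moderation, array weights, 2 filters on dim genes, a replicate block and leaving out each array. Python 3.11.15 with pandas 2.3.3 was used for tables.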

Additional observations from a re-analysis of the deposited data

Results flagged for a closer look

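Values of 1 liver lay far from the other 3 of its group in 2 of the 26 groups checked with Dixon's test, which flags about 1 group in 20 by chance. Psme1 was at 8.20 in treated liver 4, while the other treated livers were at 8.38 to 8.39. Psmd10 was at 6.07 in control liver 3, below 6.21 to 6.23 in the other controls, and its difference between groups was 0.13 without that liver. The 26 groups cover only a part of the 48 genes, so other genes can hold such a liver. For example, Psmd3 was at 8.21, 8.21, 7.84 and 8.21 in treated livers 1 to 4. Likewise Psmd11 was at 8.78, 9.10, 9.10 and 9.10 in control livers 1 to 4.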

How the results depend on the processing

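No proteasome gene passed limma's adjusted threshold under any of the 16 alternatives, and over all genes 0 passed except without control replicate 4 (1 gene, no proteasome gene). Psmb1 and Psmb9 kept an unadjusted p under 0.05 and a positive difference in 16 of 16, Psmd10 in 11 and Psmb8 in 6. The number of proteasome genes higher at an unadjusted p under 0.05 was 2 with arrays centred on their medians (Psmb1 and Psmb9) and ran from 2 to 7 when single livers were left out, with 2 when treated replicate 2 and 7 when treated replicate 3 was omitted. The number lower ran from 0 to 1 over single livers left out, and was 1 with array weights, centring, quantile normalization and the replicate block, Psmb11 in each of those 4 settings. The share of all genes called in each alternative setting is not given here. These counts can therefore not be read as a change particular to the proteasome genes. The median of the 4 immunoproteasome genes ran from 0.11 without control replicate 3 to 0.28 without control replicate 4, and that of the constitutive subunits from 0.04 to 0.07. The change of Psmb9 over Psmb6 ran from 0.15 to 0.34, and that of Psmb10 over Psmb7 from -0.02 (without control replicate 3) to 0.08. Psmb6 ran from -0.07 to 0.02 (the latter without control replicate 3) and Psmb7 from -0.01 (without treated replicate 2) to 0.07. The cause was not tested. The labels do not pair the replicate numbers, and same-numbered livers deviated together by -0.12 to -0.02 (correlation). With the replicate block Psmb8 differed by 0.29 and Psmb9 by 0.25, 3 proteasome genes were higher at an unadjusted p under 0.05, and 0 genes passed the adjusted threshold.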
